A study of Mus musculus with 15 samples.

Results

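The Sult2a genes of the mouse encode cytosolic sulfotransferases, and all 8 members, Sult2a1 to Sult2a8, were taken from the expression table by gene symbol, out of 55849 gene rows. They were chosen because the family was higher in aged than in young livers, so levels in these groups are given below as a description with no test. Livers were profiled by RNA sequencing in 15 libraries. There were 5 from mice given KSL0608-Se, a compound known here only by this code name, with irradiation, 5 from aged control mice and 5 from young control mice, called treated, aged and young livers from here on. The labels give a tissue, a group and a replicate number, and no age, sex, strain, dose, light setting or date. Means are given ± SD over the 5 libraries of a group. Whether the treated mice were old is not stated, nor whether every library is from its own mouse. The p-values below therefore reflect only how these libraries vary, and some of that variation may be technical. The series title speaks of photoactivatable removal of senescent cells, and the design sets the treated group beside young and aged controls.

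Sulfotransferases move a sulfonate group from the donor PAPS onto a hydroxyl group of their substrate. Members of the SULT2A class act on hydroxysteroids such as dehydroepiandrosterone and on bile acids, which makes them more soluble in water and easier to excrete. In mouse liver Sult2a1 and Sult2a2 are known as genes with higher expression in females, set by the pattern of growth hormone secretion, and Sult2a8 is known as a hepatic enzyme that sulfates bile acids. Humans have a single gene of this class, SULT2A1, so the mouse cluster has no member-by-member counterpart there.

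The members lie together on chromosome 7. In the RefSeq gene order of GRCm38.p6 the block from Sult2a5 to Sult2a7 holds 20 genes, of which 8 are the members, and the others are all pseudogenes. Coding sequences of the GENCODE M21 transcripts whose length equals that in the deposited table were compared base by base. Sult2a1 to Sult2a5 were 88.1 to 94.9% identical to each other over their aligned bases, Sult2a6 was 82.7 to 89.7% identical to these, Sult2a7 78.8 to 82.0% and Sult2a8 only 71.9 to 74.7%. The stretch below, coding bases 259 to 348 of each transcript, is shown for 5 members to let a reader see how their letters differ. Among stretches of 90 bases that align without gaps in these 5, it has the most positions at which Sult2a1, Sult2a2, Sult2a3 and Sult2a5 are not all alike. It is not typical of every pair, since Sult2a1 and Sult2a2 share 514 of 553 aligned coding bases. Capitals mark letters that differ from Sult2a1 at the same place, of which there are 1 in Sult2a2, 8 in Sult2a3, 5 in Sult2a5 and 20 in Sult2a8.
Sult2a1: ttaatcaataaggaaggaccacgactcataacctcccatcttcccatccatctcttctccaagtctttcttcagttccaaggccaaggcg
Sult2a2: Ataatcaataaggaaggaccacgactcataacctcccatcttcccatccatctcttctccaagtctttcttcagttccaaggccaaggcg
Sult2a3: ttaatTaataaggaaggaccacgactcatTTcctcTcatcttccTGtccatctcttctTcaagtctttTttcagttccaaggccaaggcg
Sult2a5: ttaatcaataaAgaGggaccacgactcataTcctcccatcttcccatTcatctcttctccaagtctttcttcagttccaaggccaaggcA
Sult2a8: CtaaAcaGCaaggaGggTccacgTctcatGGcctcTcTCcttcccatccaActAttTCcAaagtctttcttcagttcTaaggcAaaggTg

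Reads from such genes can fit several members. Of all stretches of 100 bases in the Sult2a2 transcript, 34.6% also occur letter for letter in another Sult2a transcript or Sult2a pseudogene, against 11.4% for Sult2a1, 16.6% for Sult2a5, 5.76% for Sult2a4 and 0% for Sult2a3, Sult2a6, Sult2a7 and Sult2a8. With 50 bases the share is 62.1% for Sult2a2, 33.2% for Sult2a1, 34.5% for Sult2a5 and 8.36% for Sult2a3. The read length is not given in the sources used here. Values of Sult2a1, Sult2a2, Sult2a4 and Sult2a5 therefore depend on how reads were divided among them, while those of Sult2a7 and Sult2a8 share no stretch of 50 bases with any other member. The deposited table lists Sult2a2 with 741 bases, the length of a model with 4 exons and 582 coding bases, whereas Sult2a1, Sult2a3, Sult2a4, Sult2a5 and Sult2a6 each have 6 exons and 855 coding bases. Levels of Sult2a2 per length rest on that shorter model.

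**Figure D1:**
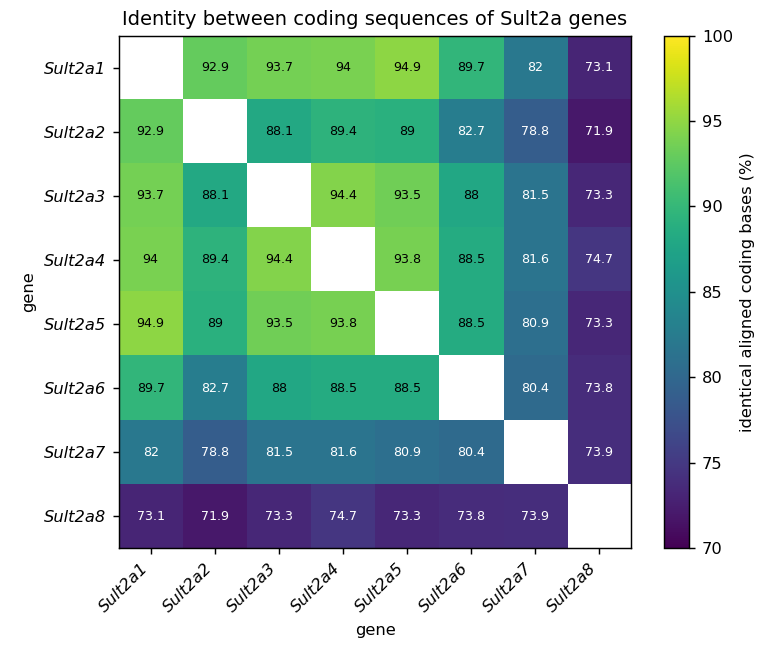
Share of identical bases (%) among aligned coding bases for each pair of Sult2a genes, in GENCODE M21 transcripts, with genes on both axes. Sult2a1 to Sult2a5 form a block at 88.1% or more, and the row of Sult2a8 holds the lowest values, from 71.9 to 74.7%.

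RefSeq promoter windows, from 250 bases before to 50 bases after an annotated start on GRCm38.p6, were at hand for 5 of the 8 members, with separate windows at each of 2 starts of Sult2a8. Windows are printed for Sult2a3 and Sult2a5, which were high in treated and aged livers, for Sult2a4, which was near 0 in every library, and for the upstream start of Sult2a8. Capitals mark GTTAAT on either strand, the core hexamer bound by HNF1, a transcription factor of hepatocytes.
Sult2a3 (chr7:14122999-14123298, minus strand): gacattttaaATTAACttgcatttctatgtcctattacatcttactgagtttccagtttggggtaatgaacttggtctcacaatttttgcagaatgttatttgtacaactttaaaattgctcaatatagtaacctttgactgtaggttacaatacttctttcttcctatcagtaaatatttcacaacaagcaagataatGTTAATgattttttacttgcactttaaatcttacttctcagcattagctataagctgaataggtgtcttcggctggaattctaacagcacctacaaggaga
Sult2a5 (chr7:13623717-13624016, plus strand): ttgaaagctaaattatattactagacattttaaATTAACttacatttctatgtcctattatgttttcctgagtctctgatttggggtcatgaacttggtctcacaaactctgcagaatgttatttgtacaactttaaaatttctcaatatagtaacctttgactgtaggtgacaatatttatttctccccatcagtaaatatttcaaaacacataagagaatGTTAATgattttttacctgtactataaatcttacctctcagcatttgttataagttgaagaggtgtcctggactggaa
Sult2a4 (chr7:13989539-13989838, minus strand): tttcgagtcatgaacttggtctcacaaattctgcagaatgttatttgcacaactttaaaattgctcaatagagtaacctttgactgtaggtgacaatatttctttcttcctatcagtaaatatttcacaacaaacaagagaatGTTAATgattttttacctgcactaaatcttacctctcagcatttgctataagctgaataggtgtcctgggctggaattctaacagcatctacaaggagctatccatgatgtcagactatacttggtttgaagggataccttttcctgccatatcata
Sult2a8 (chr7:14446538-14446837, minus strand): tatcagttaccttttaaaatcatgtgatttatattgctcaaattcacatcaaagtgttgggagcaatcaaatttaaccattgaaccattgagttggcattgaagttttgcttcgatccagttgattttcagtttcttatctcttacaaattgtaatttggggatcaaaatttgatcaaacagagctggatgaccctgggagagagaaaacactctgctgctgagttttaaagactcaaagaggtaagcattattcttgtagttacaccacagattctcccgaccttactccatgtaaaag

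The hexamer occurs in the windows of Sult2a3, Sult2a4, Sult2a5 and Sult2a6 and in neither window of Sult2a8, while 7.1% of all 32851 promoter windows of this length hold it on either strand. These 4 windows are copies of each other, with 80.9 to 92.6% identical bases where they align, so the matches are not independent. Counted from the annotated start, the hexamer begins at −240 and −51 in Sult2a3 and at −217 and −28 in Sult2a5. Within its window it begins only at −107 in Sult2a4 and only at −71 in Sult2a6. Sult2a4 and Sult2a6 stood at 0.33 TPM or less in all libraries. Among the other motifs searched on both strands, TTGCNNAA, bound by C/EBP factors, matched in Sult2a3, Sult2a4 and the upstream window of Sult2a8 (10.8% of all windows). AGGTCA, the hexamer bound by nuclear receptors, matched only in the downstream window of Sult2a8 (16.3% of all windows), as did ATTGATT, bound by HNF6 (2.86%). TATAAA matched in Sult2a5, Sult2a6 and both windows of Sult2a8 (13.6%), and TTCNNNGAA, bound by STAT5, in none of the 6 windows (8.3% of all windows). A match is only a description of the letters.

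Expression is given as TPM, a level per transcript length that the authors scaled to the same total in each library, so sequencing depth is unknown and a 0 is described as listed at 0. Differences are on the log2(TPM + 1) scale, which understates the change of low genes, and were tested with limma over the 12168 genes that averaged 1 TPM or more, with genes called at a Benjamini-Hochberg adjusted p under 0.05. Of the 8 members, 6 passed this filter and each of these 6 had a mean above 1 TPM in every group. The lowest of them were Sult2a5 and Sult2a7, with means of 16.7 and 27.4 TPM over all libraries, and below the filter were Sult2a4 and Sult2a6 with 0.101 and 0.00333 TPM. The female-expressed transcript Xist ranged from 7.39 to 37.4 TPM over the libraries, and no library had more than 0.08 TPM of any of 4 genes of the Y chromosome (Kdm5d, Uty, Eif2s3y, Ddx3y). Of 12 hepatocyte markers 11 were in the table, all of them tested, and their summed level was 112399.7 to 151020.2 TPM in treated, 114466.4 to 157536.2 in aged and 152273.4 to 198655.9 in young livers. The 5 adrenal cortex markers, for a gland that makes steroids, summed to 1.28 TPM or less in every library. The 8 B and plasma cell markers summed to 353.9 to 5191.5 TPM in treated, 430.5 to 5027.2 in aged and 12.2 to 25.2 in young livers. The 8 T and NK cell markers summed to 9.61 to 120.4 TPM in treated, 17 to 283.9 in aged and 8.05 to 14.9 in young livers, and the 8 macrophage and monocyte markers to 313.5 to 1471.4, 388.3 to 876.0 and 138.0 to 328.4 TPM in the same groups. The part of these cell markers in the results below was not tested. In bulk tissue, fewer cells of a type and less RNA per cell cannot be told apart.

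In aged livers 5 of the 6 tested members had higher levels than in young livers, in all 5 libraries against all 5, and Sult2a8 had a lower mean. For comparison, in aged against young livers 2.80% of the 12168 tested genes lay wholly above the young libraries, and 0.575% wholly below them. By limma 0.929% of them were called higher and 0.156% lower, and 8.72% had an unadjusted p under 0.05. Nothing is read from the members' count, because the family was chosen on this contrast. Sult2a1, which sulfates dehydroepiandrosterone and bile acids, stood at 619.66, 627.33, 544.03, 803.63 and 469.33 TPM in aged 1 to 5, against 72.13, 110.30, 41.82, 237.30 and 276.23 TPM in young 1 to 5. The aged mean was 4.15 times the young mean, a difference of 2.35 on the log2(TPM + 1) scale, and the lowest aged library lay well above the highest young library.

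Sult2a2, a second bile salt sulfotransferase and the most abundant member per length in all 15 libraries, had 928.85, 1195.98, 1152.84, 1332.96 and 895.32 TPM in aged 1 to 5, against 253.09, 366.80, 243.77, 716.34 and 561.61 TPM in young 1 to 5. The ratio of means was 2.57, smaller than that of Sult2a1. Young 4 and young 5 were the highest young libraries for both genes.

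The largest ratio of means was in Sult2a3, a member of the same class, with 28.4. It stood at 61.69, 65.78, 77.06, 121.52 and 54.23 TPM in aged 1 to 5, against 0.69, 2.07, 2.04, 2.08 and 6.53 TPM in young 1 to 5, a difference of 4.51 on the log2 scale. The groups were far apart, with young 5 highest among the young and aged 4 highest among the aged livers.

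Sult2a5, in the same cluster, stood at 9.12, 33.17, 33.34, 30.83 and 26.69 TPM in aged 1 to 5, against 1.42, 2.52, 1.81, 4.97 and 6.59 TPM in young 1 to 5 (ratio of means 7.69). Aged 1 was far below the other aged livers and near the upper young ones. Sult2a7 stood at 14.83, 43.61, 15.14, 66.06 and 77.05 TPM in aged 1 to 5, against 2.81, 5, 3.71, 9.40 and 0.64 TPM in young 1 to 5 (ratio of means 10.1). The groups did not overlap, but aged 1 and aged 3 were close to young 4.

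Sult2a8 went the other way. It had 18.94, 50.38, 20.57, 47.41 and 34.02 TPM in aged 1 to 5, against 101.97, 161.85, 36.30, 167.19 and 18.47 TPM in young 1 to 5, a ratio of means of 0.353. The groups overlapped, since young 3 and young 5 lay within the aged range or below it, and the young libraries spread 9.05-fold between lowest and highest.

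Sult2a4 reached at most 0.33 TPM in any library, and Sult2a6 was listed at 0 in 14 of 15 libraries and at 0.05 TPM in aged 3. Of the 4 annotated pseudogenes, Sult2a-ps1 stood at 1.12 to 6.05 TPM in treated, 0.95 to 6.71 in aged and 0.07 to 0.52 TPM in young livers, Sult2a-ps2 was above 0 in 3 treated, 3 aged and no young libraries, and Sult2a-ps3 and Sult2a-ps4 were listed at 0 throughout. Reads of the pseudogenes and of the coding members may be exchanged between them.

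**Figure D2:**
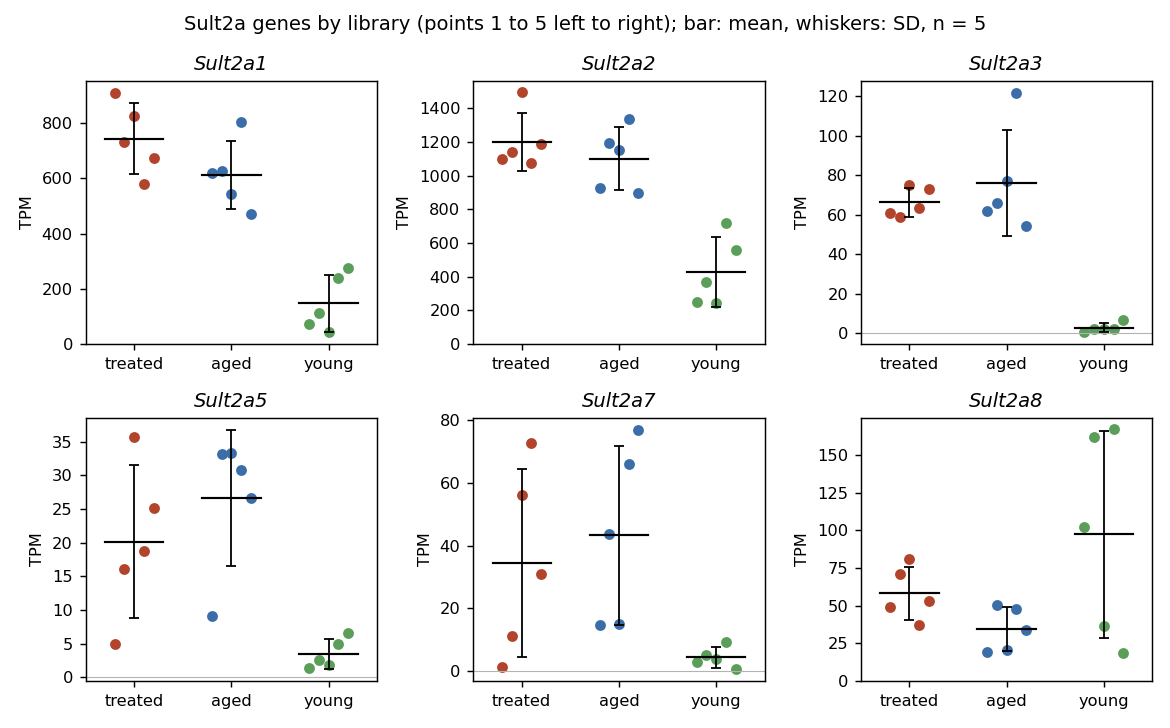
TPM of the 6 tested Sult2a genes in each library (points, replicates 1 to 5 from left to right) in treated, aged and young livers, with the mean (bar) and SD (whiskers), n = 5. For Sult2a1, Sult2a2 and Sult2a3 every treated and aged library lies above every young one, while Sult2a8 overlaps between all groups.

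The summed level of the 8 members depends less than single genes on how reads were split among them. It was 2127.18, 2030.30, 2570.25, 1846.97 and 2039.70 TPM in treated 1 to 5, then 1653.21, 2016.36, 1843.14, 2402.74 and 1556.74 TPM in aged 1 to 5, and 432.11, 648.54, 329.51, 1137.28 and 870.07 TPM in young 1 to 5. This made up 0.212 ± 0.0269% of all TPM in treated, 0.189 ± 0.0334% in aged and 0.0684 ± 0.0329% in young livers (mean ± SD, n = 5). No treated or aged library reached down to the young range.

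The makeup of the sum differed as well. Sult2a2 held 56.5 ± 2.79% of it in treated, 58.2 ± 2.81% in aged and 63.3 ± 6.76% in young livers. Sult2a1 held 35.1 ± 4.69% in treated, 32.3 ± 3.25% in aged and 19.8 ± 7.26% in young livers, and Sult2a3 held 3.14 ± 0.339%, 3.94 ± 0.712% and 0.406 ± 0.266% in the same groups. Sult2a8 held 2.71 ± 0.614% in treated and 1.79 ± 0.623% in aged livers and 15.3 ± 9.43% in young livers. It was second to Sult2a2 in young 1 and young 2, with 23.6 and 25% against 16.7 and 17% for Sult2a1, and below Sult2a1 in the other young libraries.

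The level of Sult2a1 relative to Sult2a2, per length, was 0.826, 0.643, 0.551, 0.537 and 0.568 in treated 1 to 5, then 0.667, 0.525, 0.472, 0.603 and 0.524 in aged 1 to 5, and 0.285, 0.301, 0.172, 0.331 and 0.492 in young 1 to 5. Young 5 lay inside the range of aged livers and the other young libraries below it. These genes share many stretches, so this ratio depends on how reads were divided. The ratio of Sult2a3 to Sult2a2 ran from 0.0502 to 0.0615 in treated, from 0.055 to 0.0912 in aged and from 0.00273 to 0.0116 in young livers, with no overlap between the young and the other groups.

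**Figure D3:**
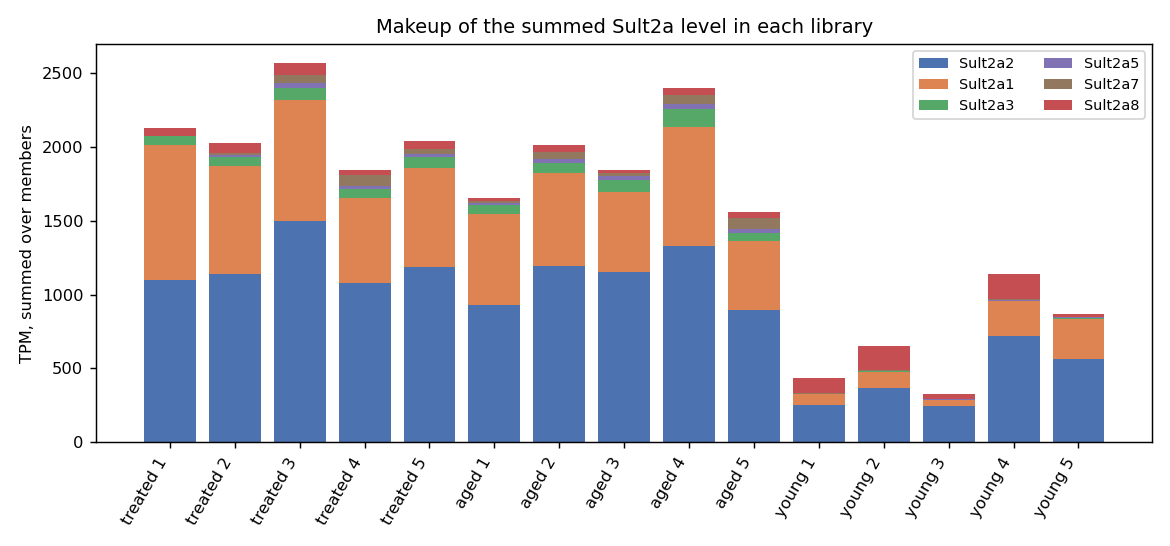
Summed TPM of the Sult2a genes in each library, stacked by member (Sult2a4 and Sult2a6 are too low to show), with treated, aged and young libraries from left to right. Treated and aged libraries stand between 1556.74 and 2570.25 TPM, young libraries between 329.51 and 1137.28 TPM, and Sult2a8 takes 2.12 to 25% of the sum in young libraries, against at most 3.5% in treated and 2.5% in aged ones.

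Between treated and aged livers no member was called. The treated libraries took no part in choosing the family, although the aged ones did. Over all genes tested, 0.00822% were called higher in treated than in aged livers (1 gene) and 0% lower, 4.41% had an unadjusted p under 0.05, and 0.403% lay wholly above and 0.288% wholly below the aged libraries. By limma none of the 6 tested members passed after Benjamini-Hochberg adjustment, the lowest adjusted p being 0.925, and 0 had an unadjusted p under 0.05. The median difference of the 6 members was −0.01 on the log2 scale, beside −0.001 for all tested genes, with 3 members higher and 3 lower.

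Sult2a1 stood at 909.71, 733.17, 825.05, 578.42 and 672.91 TPM in treated 1 to 5, beside the aged values above, a log2 difference of 0.28 (SE 0.40, 95% interval −0.57 to 1.13). Sult2a2 stood at 1101.35, 1140.08, 1497.18, 1076.50 and 1184.86 TPM in treated 1 to 5, a difference of 0.13 (SE 0.25, interval −0.40 to 0.66). For both genes the treated and aged ranges overlapped broadly. The interval of Sult2a2 was the narrowest of the 6 members.

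Sult2a3 stood at 60.97, 58.66, 75.17, 63.52 and 72.90 TPM in treated 1 to 5, a difference from aged livers of −0.14 (SE 0.30, interval −0.78 to 0.49), and all treated values lay inside the aged range. Without aged 4, the highest aged library, the difference was 0.04. Sult2a5 stood at 4.92, 16.06, 35.72, 18.81 and 25.10 TPM in treated 1 to 5 (difference −0.49, interval −1.51 to 0.53). Both groups held a low library for Sult2a5, treated 1 and aged 1, and the difference was −0.09 without treated 1 and −0.82 without aged 1.

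Sult2a7 varied most within a group, with 1.2, 11.10, 56.12, 72.80 and 30.87 TPM in treated 1 to 5, a 60.7-fold range between the lowest and highest treated livers. Its difference from aged livers was −0.81 (SE 0.89, interval −2.73 to 1.11) and −0.01 without treated 1. Treated 1 was the lowest treated library for Sult2a5 and Sult2a7 and the highest for Sult2a1. Sult2a8 stood at 48.91, 71.00, 80.80, 36.80 and 53.06 TPM in treated 1 to 5. Its mean of 58.1 ± 17.6 TPM in treated livers lay between the aged mean of 34.3 ± 14.6 TPM and the young mean of 97.2 ± 68.9 TPM, with a difference from aged livers of 0.80 (SE 0.54, interval −0.35 to 1.95).

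**Figure D4:**
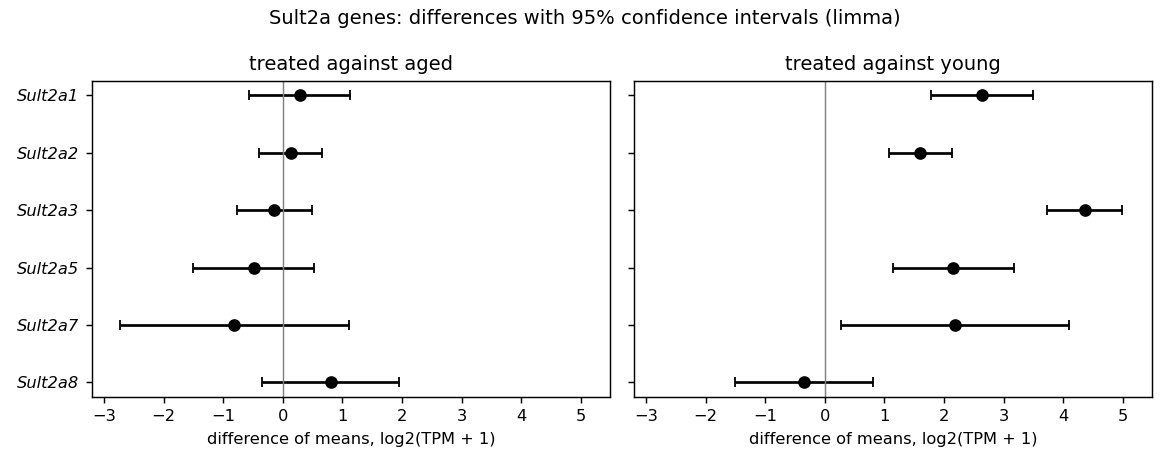
Differences of group means on the log2(TPM + 1) scale with 95% confidence intervals from limma for the 6 tested Sult2a genes, treated against aged livers on the left and treated against young livers on the right. All intervals on the left include 0. On the right those of Sult2a1, Sult2a2, Sult2a3, Sult2a5 and Sult2a7 lie above 0, and that of Sult2a8 includes it.

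Beside young livers, 4 of the 6 tested members rose in treated livers, 2 did not pass and none fell, where 2.18% of all tested genes were called higher and 0.731% lower. The young libraries are those on which the family was chosen, so this comparison is not free of that choice. Low young values favoured a rise here, so nothing is read from the members' counts, and their p-values carry the same choice. In either direction 2.91% of all tested genes were called, and 17.8% had an unadjusted p under 0.05. On the log2(TPM + 1) scale Sult2a3 rose by 4.36 (SE 0.30, limma adjusted p = 2.12e-07), Sult2a1 by 2.64 (SE 0.40, adjusted p = 0.00198), Sult2a5 by 2.16 (SE 0.48, adjusted p = 0.0242) and Sult2a2 by 1.61 (SE 0.25, adjusted p = 0.00196). Every treated library was above every young one for Sult2a1, Sult2a2 and Sult2a3, which is 3 of the 6 members against 3.14% of all tested genes. For Sult2a5, treated 1 at 4.92 TPM lay below young 4 and young 5.

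The call of Sult2a5 ended without treated 2 (limma adjusted p = 0.0592), treated 3 (0.0567), treated 5 (0.0725), young 1 (0.0572), young 2 (0.0593) or young 3 (0.0668), and with no filter on low values (0.0632). Sult2a7 did not pass, with 34.4 ± 30 TPM in treated and 4.31 ± 3.26 TPM in young livers (log2 difference 2.19, SE 0.89, limma adjusted p = 0.217), but passed without treated 1 (2.99, adjusted p = 0.0235), with library weights (2.56, 0.0439) and without treated 1, aged 5 and young 4 together (3.29, 0.0124), an alternative chosen after seeing the data. Sult2a8 did not pass either (log2 difference −0.35, SE 0.54, adjusted p = 0.781). Treated and aged livers were each compared with the same young libraries, so their differences from young livers share those values. Side by side, the differences from young livers in treated and in aged livers were 2.64 and 2.35 for Sult2a1, 1.61 and 1.48 for Sult2a2, and 4.36 and 4.51 for Sult2a3.

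Members differed in how much they varied within a group. The coefficient of variation of Sult2a2 was 14.3% in treated, 16.8% in aged and 48.0% in young livers, and that of Sult2a1 was 17.3%, 20.3% and 70.2% in the same groups. Sult2a3 varied by 11.1% in treated, 35.1% in aged and 83.2% in young livers, and Sult2a8 by 30.4%, 42.7% and 71.0%. For each of these 4 genes the young livers varied most relative to their mean, and treated livers least. Sult2a7 varied by 87.2% in treated, 65.9% in aged and 75.6% in young livers, and Sult2a5 by 56.5%, 38.1% and 64.3%.

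The other sulfotransferase genes lie outside the Sult2a cluster. Of 12 listed, 9 were tested. In aged against young livers 1 rose, none fell and 8 did not pass, with a median log2 difference of 0.46 beside 0.04 (0.045) for all genes, and 1.08% of all tested genes were called in either direction. The riser was Sult5a1, a member of the superfamily whose substrate is not well described. It stood at 16.21, 9.48, 8.10, 7.91 and 11.27 TPM in aged 1 to 5, against 2.83, 1.49, 2.77, 2.62 and 0.81 TPM in young 1 to 5 (log2 difference 1.92, SE 0.40, limma adjusted p = 0.0263). Leaving out aged 1, aged 2, aged 5, young 2, young 3 or young 5 ended this call, as did a pseudocount of 5, no filter, quantile normalization and median-ratio scaling.

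In treated livers Sult5a1 stood at 64.88, 18.41, 12.44, 12.31 and 10.41 TPM, all above the young libraries, and rose against young livers by 2.69 (SE 0.40, limma adjusted p = 0.00139). Treated 1 was the highest library for Sult5a1, and it was also highest for Sult1e1, the estrogen sulfotransferase, at 42.45 TPM against 1.12 to 5.33 TPM in the other treated livers. Sult1a1, a phenol sulfotransferase and the most abundant of the 9 per length, stood at 517 ± 93.6 TPM in treated, 453 ± 97.9 in aged and 508 ± 145.7 in young livers, and no contrast of it passed. Sult3a1, a sulfotransferase with higher expression in female liver, stood at 24.4 ± 14.4 TPM in treated, 9.79 ± 6.20 in aged and 23.0 ± 14.2 in young livers. Its groups overlapped in every comparison, and like Sult2a8 it had its lowest mean in aged livers. Against aged livers none of the 9 passed in treated livers, where 0 had an unadjusted limma p under 0.05, 8 differences were positive and the list median was 0.61. The median of all tested genes in that contrast was −0.001. Against young livers all 9 differences were positive in treated livers, with a median of 0.55 beside 0.061 for all tested genes. Sult4a1 and Sult1e1 averaged 0.054 and 0.358 TPM in young livers and passed the filter only through the other groups. The filter thus favoured their positive differences from young livers, and nothing is read from the count of positive ones. Sult5a1 alone passed and 8 did not, where 2.18% of all tested genes were called higher.

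**Figure D5:**
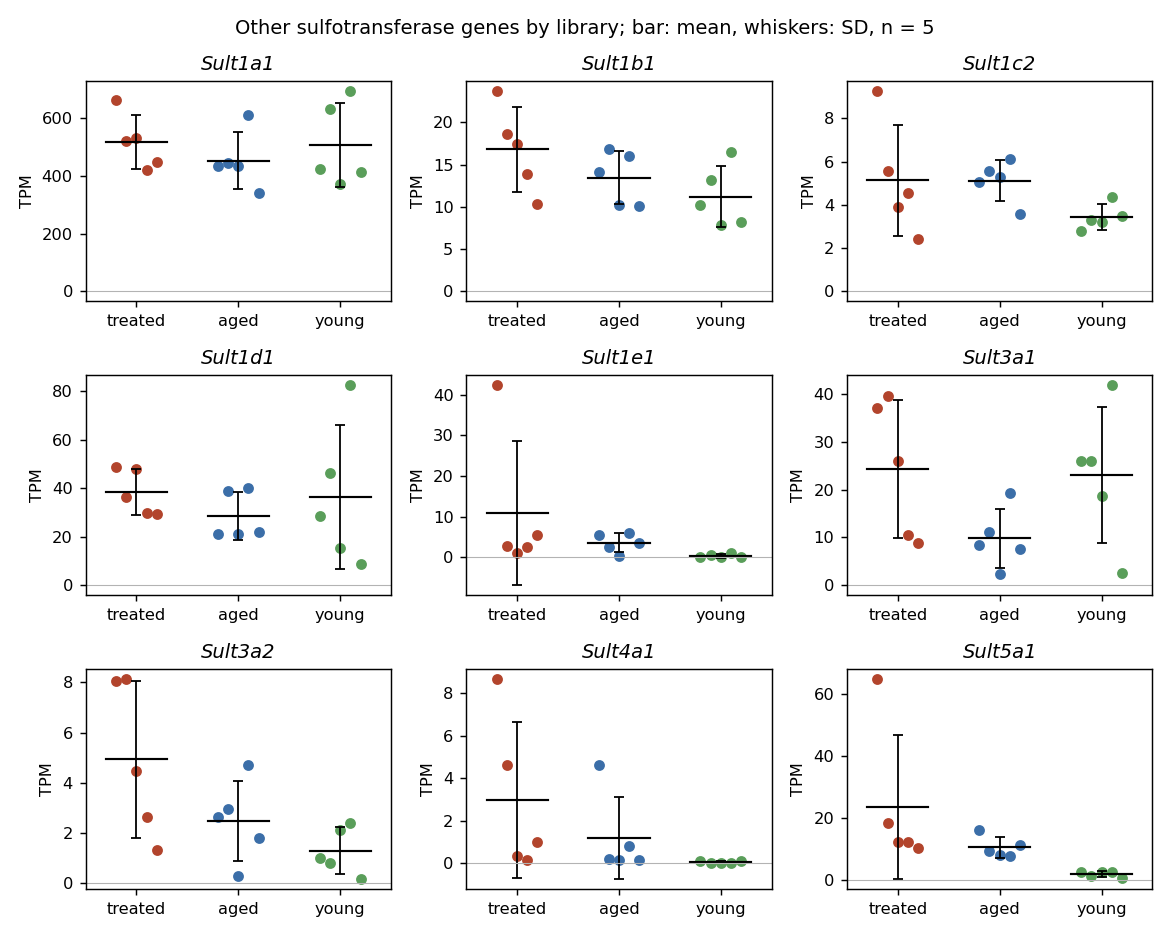
TPM of the 9 other tested sulfotransferase genes in each library (points) in treated, aged and young livers, with the mean (bar) and SD (whiskers), n = 5. For Sult5a1 and Sult4a1 every treated and aged library lies above every young one, and treated 1 at 64.88 TPM is far above the rest for Sult5a1. For Sult4a1, which was not called, the gap is small and near 0. With a young mean of 0.054 TPM, Sult4a1 passed the filter only through the other groups. Treated 4 is at 0.14 and aged 5 at 0.16 TPM, beside young 5 at 0.12 TPM. Of all tested genes, 3.14% in treated and 2.80% in aged livers lay wholly above the young libraries.

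No gene that supplies the sulfonate donor was called. Of 11 genes of donor synthesis and sulfate transport 8 were tested, and none passed in any of the 3 contrasts by limma, and 1 had an unadjusted limma p under 0.05, in treated against young livers. In that contrast 3 were called without young 4, 1 with quantile normalization or median-ratio scaling, and 2 with library weights or without treated 1, aged 5 and young 4 together. Papss2, which makes PAPS in liver, stood at 95.6 ± 34.5 TPM in treated, 101.1 ± 17.9 in aged and 90.3 ± 20.5 in young livers. Slc35b2, which carries PAPS into the Golgi, stood at 27.7 ± 8.29 TPM in treated, 38.1 ± 2.80 in aged and 48.8 ± 16.8 in young livers (treated against young −0.75, limma adjusted p = 0.113). A list of 11 genes held sulfatases, whose enzymes remove sulfate groups, and the sulfatase-modifying factors Sumf1 and Sumf2. Sts, the steroid sulfatase gene, was not found by its symbol among the gene rows, so it is not covered. The other 10 were tested and none passed in any contrast, with 0 at an unadjusted limma p under 0.05 in each. Without young 4, 1 of them was called in treated against young livers.

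Of 23 nuclear receptors and transcription factors of liver 22 were tested. None passed between treated and aged livers, where 0 had an unadjusted limma p under 0.05. Nr1i2, which encodes the xenobiotic receptor PXR, a regulator of Sult2a genes, stood at 26.6 ± 8.46 TPM in treated, 29.8 ± 6.72 in aged and 42.2 ± 10.8 in young livers. Nr0b2, which encodes the repressor SHP, stood at 36.9 ± 11.7 TPM in treated, 29.1 ± 6.09 in aged and 63.5 ± 22.5 in young livers (aged against young −1.05, limma adjusted p = 0.0582). The bile acid receptor gene Nr1h4 had log2 differences of −0.23 to −0.02 in the 3 contrasts. Of 22 targets of PXR and CAR, Cyp2b10, a P450 of drug metabolism, rose in aged against young livers (1.05, limma adjusted p = 0.0497), a call that held in 6 of 25 alternatives, and Cyp3a11, a P450 of steroid and drug metabolism, fell in treated against young livers, with 115.6 ± 90.8 TPM in treated and 1606.6 ± 435.9 TPM in young livers (adjusted p = 0.0366). Aged livers were low for Cyp3a11 too, with 19.29, 205.51, 169.07, 55.86 and 115.62 TPM in aged 1 to 5, below every young library. It was not called in aged against young livers. The Cyp3a11 call in treated livers held in 17 of 25 alternatives, the highest adjusted p being 0.0923. It ended without treated 2 or 5, without young 1, 2, 3 or 5, with no filter and with only the groups compared. Cyp2b10 had adjusted p values of 0.0101 to 0.151, and its call ended without treated 1, 2, 3 or 4, aged 1, 3, 4 or 5, or young 1, 2, 3 or 4, and with a pseudocount of 5, no filter, quantile normalization, median-ratio scaling or only the groups compared.

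Among 20 genes of bile acid synthesis and transport 19 were tested. Abcc4, which exports sulfated bile acids and steroids, rose in aged livers, with 3.39 ± 0.682 TPM in aged and 1.17 ± 0.586 TPM in young livers (log2 difference 1.05, limma adjusted p = 0.0157), and the other 18 did not pass. The call of Abcc4 ended without aged 4 or young 3 and with quantile normalization (highest adjusted p 0.0597). In treated against young livers 1 rose, 1 fell and 17 did not pass. Cyp2c70, which makes the muricholic acids of mouse bile, rose by 0.87 (adjusted p = 0.0294), and Slco1a1, an uptake transporter typical of male liver, fell by 1.64 (adjusted p = 0.0463). Slco1a1 was low throughout, at 0 to 0.26 TPM in treated, 0.01 to 0.05 in aged and 0.08 to 7.92 in young livers. Its low level was thus shared by aged livers, where it was not called against young livers. The Cyp2c70 call held in 18 of 25 alternatives and ended without treated 2 or 5 or young 2 or 5, with no filter and with median-ratio scaling. The Slco1a1 call held in 8 of 22 and ended without any 1 treated library, without aged 1, 2, 3 or 4, without young 3, with a pseudocount of 5, with no filter and with only the groups compared. The list had a median log2 difference of −0.27 in aged against young and −0.27 in treated against young livers, beside 0.045 and 0.061 for all tested genes.

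The genes most like the summed Sult2a level over the 15 libraries, by Pearson's r of log2(TPM + 1) among 10920 named genes, were Cyp3a16 (r = 0.934), Gstm2 (0.903), Cyp3a44 (0.897), Cyp3a41b (0.895), Hmgn3 (0.889) and Selenok-ps7 (0.880). Cyp3a16, Cyp3a44 and Cyp3a41b are P450 genes, Gstm2 is a glutathione transferase gene and Hmgn3 encodes a nucleosome-binding protein. These r values are descriptions over libraries that fall into groups, and young libraries are low for both sides. Cyp3a16 averaged 177.6 ± 70.4 TPM in treated, 141.4 ± 64.3 in aged and 2.47 ± 2.66 in young livers. Measured on deviations from the group means over the same 15 libraries, the most alike were Mtx2 (0.864), Tstd1 (0.787), Serpinb8 (0.785), Cyp2a22 (0.765), Gstm2 (0.751) and Ces2d-ps (0.735), and Gstm2 was the gene in both sets.

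All 34 listed liver genes with higher expression in females, Sult2a members not among them, were tested. In aged against young livers 8 rose and 26 did not pass, where 0.929% of all tested genes were called higher and 0.156% lower. Single omissions gave 4 to 8 calls, with 5 without aged 1 or young 1 and 4 without aged 3, aged 4 or young 3, and median-ratio scaling gave 4. In treated against young livers 9 rose, 3 fell and 22 did not pass, beside 2.18% and 0.731% of all tested genes. Those with the smallest p in aged livers were A1bg, a secreted glycoprotein gene, with 3954.9 ± 1695.4 TPM in aged and 20.6 ± 13 TPM in young livers, and the P450 genes Cyp3a44, Cyp3a16 and Cyp3a41a, with log2 differences of 5.65, 5.54 and 2.85. The call of Cyp3a41a ended when the fit held only the aged and young libraries (adjusted p = 0.0672). Among those that fell in treated livers were Cyp2b13 and Cyp4a10, which encode oxidizing enzymes. Cyp2b13 stood at 19.5 ± 20.9 TPM in treated and 280.5 ± 101.0 TPM in young livers (log2 difference −4.46, limma adjusted p = 0.0167). Aged 1 to 5 stood at 4.96, 98.37, 30.03, 19.49 and 81.15 TPM, also below every young library. Cyp2b13 was not called in aged against young livers. The list median was 0.50 in aged and 0.43 in treated against young livers, beside 0.045 and 0.061 for all tested genes. The list of male-biased liver genes had 23 tested. There 2 rose and 3 fell in aged against young livers, where 0.929% of all tested genes were called higher and 0.156% lower, and the 5 calls became 3 without aged 1, aged 2, aged 4, young 1 or young 2. In treated against young livers 4 rose and 6 fell, beside 2.18% and 0.731% of all tested genes, and the 10 calls became 6 without treated 5, young 1, young 2 or young 3, 5 with no filter and 4 when the fit held only these groups. The genes that rose in aged livers were Mup17 (log2 difference 6.43, limma adjusted p = 0.00909) and Mup1 (4.35, adjusted p = 0.0196), which encode major urinary proteins, and both rose in treated livers too (7.38 and 5.55) with Mup7 (3.53) and Mup11 (2.13). The Mup1 call in aged livers held in 17 of 25 alternatives and ended without aged 1, 2 or 4, without young 1, 2, 3 or 5 and with a pseudocount of 5. In treated livers the Mup11 call held in 17 of 25 alternatives and the Mup7 call in 24 of 25. Cyp2d9, a P450 gene typical of male liver, stood at 3.78 ± 2.74 TPM in treated, 4.04 ± 1.24 in aged and 68.8 ± 24 in young livers (limma adjusted p = 4.53e-06 in aged against young livers). Between treated and aged livers no gene of the 8 lists was called among 137 tested, 7 having an unadjusted limma p under 0.05.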

How the data were processed

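RNA of mouse liver was measured by sequencing in 15 libraries. Per the submitters' processing notes the authors used fastp, HISAT and RSEM on GRCm39, and no versions or settings are given in the sources used here. The deposited values are TPM to 2 decimals, which the authors scaled within each library, so every library sums to between 999999 and 1000001. The table has 55849 rows, 1836 of them with no symbol, and its 3 columns of group means were not used. From the TPM, log2(TPM + 1) was computed for the 12168 genes that averaged 1 TPM or more, and the 3 groups were fitted together with limma 3.58.1 (R 4.3.3; trend on mean expression, robust), with Benjamini-Hochberg adjustment over all tested genes and calls at 0.05. The fit was tested on simulated data. Near-identical members share reads, so summed TPM is given beside single genes. Identity was computed with Biopython 1.88 on GENCODE M21 (GRCm38) transcripts, and promoter windows are those of RefSeq on GRCm38.p6, an older build than the authors' GRCm39, so the coordinates printed refer to GRCm38.p6 only. All members were named, and per list up to 4 tested genes with the smallest p. Sult1a1, Sult3a1, Sult1e1, Sult4a1, Papss2, Nr1i2, Nr1h4 and Cyp2b13 are named for their role or direction, with their values seen. Some list genes are not reported here. The members, lists and rules were chosen with earlier results of these data known. Depth cannot be recovered from TPM, so no counting interval or detection floor is given. Alternatives were the pseudocount (0.1 or 5), the filter (none or 5 TPM), quantile and median-ratio scaling, fits of 2 groups alone, library weights, a replicate block and leaving out each library.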

Additional observations from a re-analysis of the deposited data

Results flagged for a closer look

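Outlying libraries were looked for in the 6 tested Sult2a members, their sum and the 9 other tested sulfotransferases, on the log2(TPM + 1) scale, as a gap to the nearest library of more than 0.71 of the group's range. This marked 2 of 48 groups of 5 libraries, and about 1 in 20 is marked by chance. Sult2a5 in aged 1 stood at 9.12 TPM, far below the other aged livers at 26.7 to 33.3 TPM. Sult4a1, a sulfotransferase best known from brain, stood at 4.61 TPM in aged 1, far above the other aged livers at 0.16 to 0.81 TPM.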

How the results depend on the processing

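No member was called between treated and aged livers under any of 25 alternatives, and 3 to 5 members were called between treated and young livers, against 4. Sult2a1, Sult2a2 and Sult2a3 stayed called there, and all member differences kept their direction except 2 between treated and aged livers. Sult2a3 ran from −0.25 (without aged 5) to 0.04 (0.038, without aged 4), and Sult2a7 was 0.27 (0.272) without treated 1, aged 5 and young 4 together, an alternative chosen after seeing the data. The cause was not tested.

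Genes called in aged against young livers numbered 132, and 76 with a filter at 5 TPM, which tests fewer genes, 244 with library weights and 79 (without young 3) to 165 (without treated 1) when 1 library was left out. In treated against aged livers 1 gene was called, 0 with the filter at 5 TPM and 1 to 2 when 1 library was left out. In treated against young livers 354 were called, 188 with no filter, 217 with the filter at 5 TPM, 574 with quantile normalization, 654 with median-ratio scaling, 1538 with library weights, 1458 without treated 1, aged 5 and young 4, and 183 (without treated 2) to 1192 (without young 4) when 1 library was left out. The count also moved by over 1.5 times without treated 1 (599), treated 5 (194), young 2 (218), young 3 (211) or young 5 (209). The split of higher against lower calls there was 265 to 89, 252 to 322 with quantile normalization and 341 to 313 with median-ratio scaling and 488 to 704 without young 4, and 113 to 19, 78 to 41 and 97 to 38 in aged against young livers. Quantile normalization put the median difference of all genes at −0.07 in treated against young livers, against 0.06 (0.061), and every member except the untested Sult2a4 and Sult2a6 kept its direction.

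Replicate numbers were tried as a block. Same-numbered libraries correlated at −0.249 to 0.309, over 0.1 in 4 of 15 pairs, and 4 of 15 libraries were closest to their own number. No clear pairing by number was seen, which does not show that there was none. With the replicate block 116 genes were called in aged against young livers, 1 gene and 0 members in treated against aged livers, and 373 genes and 4 members in treated against young livers. Of the other genes named, Abcc4 and Cyp2b10 in aged against young livers and Slco1a1 in treated against young livers were not called under it. Depth is unknown, so nothing can be said of how it limits low members.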
